A study of Mus musculus with 4 samples.

Results

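Elastic fibre genes and Mgp were followed in mouse muscle stem cells: the 10 genes Mfap2, Mfap4, Mfap5, Fbln1, Fbln2, Fbln5, Fbn1, Fbn2, Eln and Mgp were listed by name and found by symbol among the 31055 features counted, so that all 10 were measured. Elastic fibres are built outside the cell on a scaffold of fibrillin microfibrils (Fbn1, Fbn2), to which small microfibril-associated proteins attach (Mfap2, Mfap5). Elastin (Eln) forms the core of the mature fibre, and fibulins (Fbln1, Fbln2, Fbln5) and Mfap4 help to place and cross-link it. Matrix Gla protein (Mgp) is a small secreted protein that is carboxylated with vitamin K, keeps soft tissue from calcifying and binds bone morphogenetic proteins. In muscle most of this matrix is usually credited to fibroblasts and vessel wall cells, so the levels below are those of sorted muscle stem cells and their progeny.

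The cells were sorted by green fluorescence from Tg:Pax7-nGFP mice aged 2 to 4 months, in which a nuclear GFP marks cells that use the Pax7 promoter. They came from the eye-moving extraocular muscles (EOM) or from the tibialis anterior (TA), which flexes the ankle. Quiescent cells were loaded straight after sorting, and activated cells were first cultured for 4 days on Matrigel at 3% oxygen. Each of the 4 groups (quiescent and activated, from either muscle) was 1 droplet library, all from the same transgene and the same kind of sort, and the number of animals behind a library is not given in the sources used here. With 1 library in a group no test between groups was possible, so folds are descriptions of these libraries and every interval is a 95% interval that covers counting error only.

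After filtering, 3594, 2910, 5563 and 4281 cells remained (quiescent EOM then TA, activated EOM then TA, the order used throughout), holding 15355339 to 122730850 UMIs per library. Median UMIs per cell were 4662 and 5036.5 in the quiescent libraries and 21261 and 23383 in the activated ones. Any pair of libraries shared 5 to 12 cell barcodes. Barcodes with over 10% mitochondrial UMIs, which were left out, made up 11.7% to 40.5% of a library and were most frequent in quiescent TA. Muscle markers summed to 3317, 4382, 5927 and 9002 CPM (UMIs of a gene scaled to a common library total), with Pax7 at 287, 386, 75.2 and 55.1 CPM, and Myog, which marks cells committed to fuse, at 4.87, 8.14, 1487 and 1552 CPM.

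Other cell types were looked for because several of them make elastic fibres. Fibroblast markers summed to 601, 709, 78.9 and 58.1 CPM, of which Col3a1 gave 350, 430, 67.3 and 55 CPM, while Lum was at 0 UMIs and Dcn and Dpt at 2 UMIs each in either activated library. Col1a1 did not follow that fall in EOM: it had 4.29, 8.92, 11.3 and 2.80 CPM, and so was higher in activated EOM than in activated TA, as Mgp and Fbn1 were. Tenocyte markers summed to 20.2, 14.3, 94.4 and 181 CPM, nearly all from Scx at 17.4, 4.75, 92.6 and 181 CPM. Mural and smooth muscle markers summed to 430, 264, 2095 and 1197 CPM, mostly Acta2, which differentiating muscle cells also make. The mural receptor Pdgfrb stood at 30.8 CPM in activated EOM and 1.08 CPM in activated TA, whereas Myh11, a defining smooth muscle gene, had 3 and 2 UMIs there. Of the 4 mural markers with at least 5 CPM in either activated library, 3 were higher in EOM and 1 was lower. Notch3, at 29.7 and 10.8 CPM, was among the higher ones, and Cspg4, at 2.94 and 8.95 CPM, was the lower one. Endothelial markers summed to 5.83 to 7.76 CPM in any library. The part of such cells in the results was not tested, except where cells carrying several of their rare markers were left out below.

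The promoter sequences of a pair of fibulins are shown because their genes went opposite ways on activation in both muscles under the cell filter used here, and that of Mfap2 because this gene had a low level in both activated libraries. RefSeq sequence on GRCm38.p6 was given for 5 of the 10 genes, and each window lies upstream of the first annotated exon, 5′ to 3′ along the gene. The Mfap2 and Fbln1 windows end next to that exon, whereas the Fbln5 window ends at 101819120 and the annotated gene starts at 101819055. Capitals mark the only match in these 3 windows to 4 motifs searched on both strands: the E-box CAGCTG, the AP-1 site TGACTCA, the TEAD site GGAATG and the TATA box TATAAA.
Mfap2, chr4:141010174-141010417, plus strand: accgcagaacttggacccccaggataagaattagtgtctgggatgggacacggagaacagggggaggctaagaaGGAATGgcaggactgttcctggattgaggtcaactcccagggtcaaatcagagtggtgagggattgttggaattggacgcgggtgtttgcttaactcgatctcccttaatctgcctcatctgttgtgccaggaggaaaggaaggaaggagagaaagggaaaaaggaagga
Fbln1, chr15:85205699-85205948, plus strand: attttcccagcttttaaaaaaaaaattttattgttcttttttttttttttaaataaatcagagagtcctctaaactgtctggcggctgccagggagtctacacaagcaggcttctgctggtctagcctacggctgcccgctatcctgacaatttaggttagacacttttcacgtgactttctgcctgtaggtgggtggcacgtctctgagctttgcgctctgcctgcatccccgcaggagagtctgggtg
Fbln5, chr12:101819120-101819369, minus strand: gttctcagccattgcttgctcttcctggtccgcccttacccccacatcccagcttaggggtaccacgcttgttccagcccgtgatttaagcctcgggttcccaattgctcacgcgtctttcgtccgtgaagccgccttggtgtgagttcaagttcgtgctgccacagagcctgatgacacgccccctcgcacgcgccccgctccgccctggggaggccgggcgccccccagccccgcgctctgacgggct
The Mfap2 window of 244 bases holds 1 TEAD match, and 12.6% of 32851 promoter windows of 250 bases held at least 1. The other motifs were found in 13% (CAGCTG), 4.46% (TGACTCA) and 12.4% (TATAAA) of those windows and in none of these 3. A match is a run of letters and not a shown binding site, and a missing match says only that these letters are not in this window. The Fbln5 window was 65.2% G and C and the Fbln1 window 46.4%.

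Across the 4 libraries the genes had different orders. Mfap4 and Fbln5 were highest in quiescent EOM, Mgp was highest in activated EOM, and Mfap2, Mfap5 and Eln were low everywhere and lowest in activated cells. Fbn1 was found in all 4 libraries with its lowest level in activated TA. Fbln1 and Fbn2 were higher in both activated libraries than in both quiescent ones, and Fbln2 was lowest in quiescent TA. All 10 genes had more CPM in EOM than in TA in both states, but for some of them the interval of the fold included 1, and for Mgp in quiescent cells the order turned when a few cells were left out.

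**Figure D1:**
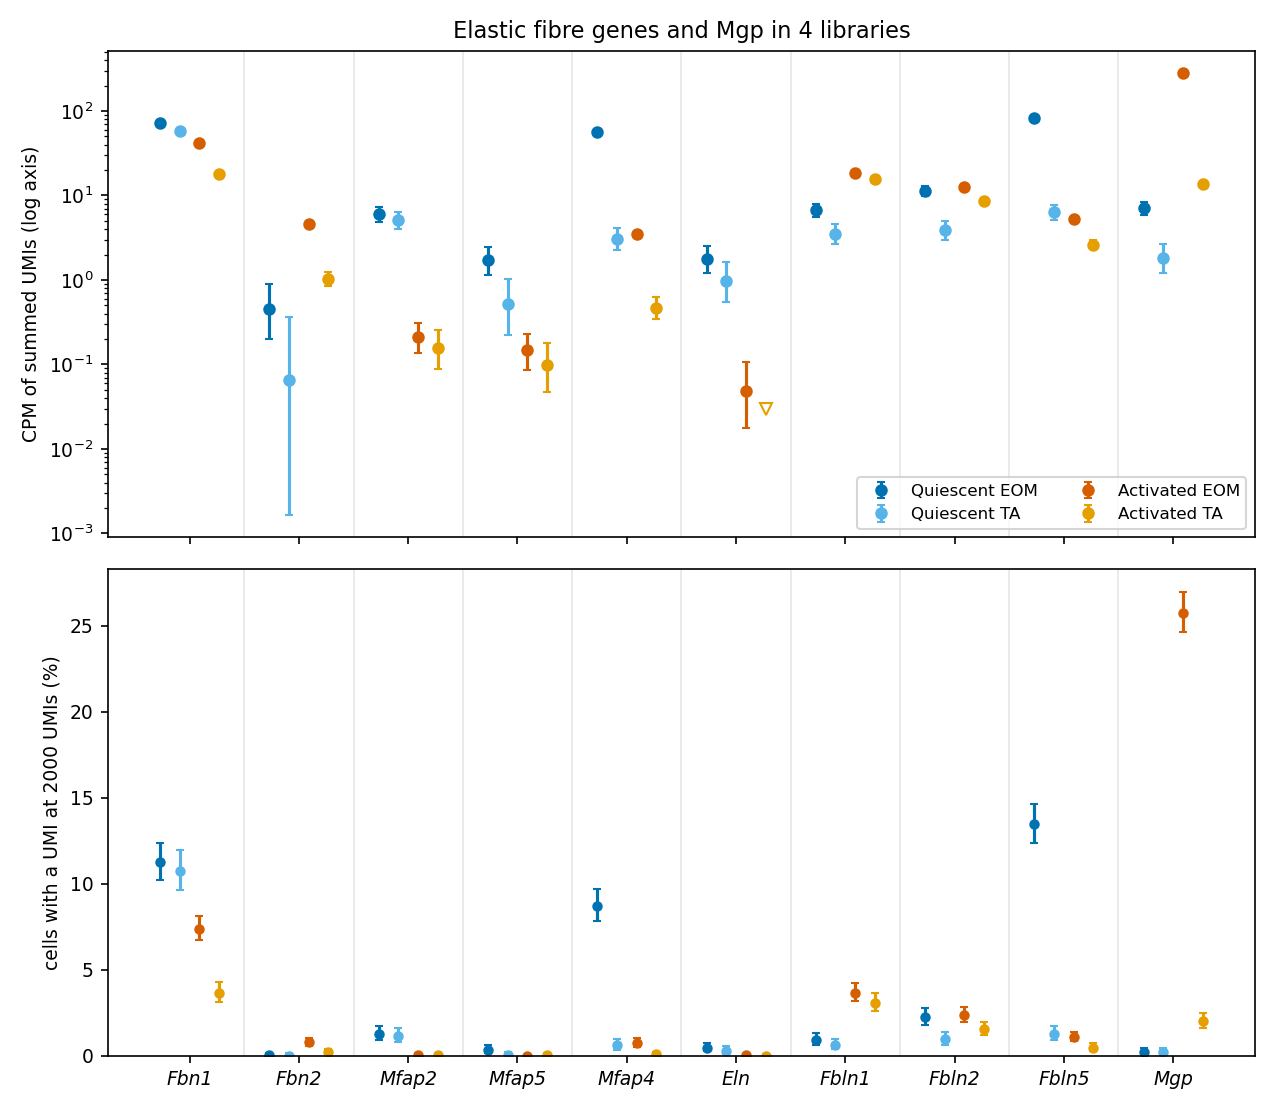
Top, CPM of UMIs summed over all kept cells (log axis) for each gene in the 4 libraries, with 95% Poisson intervals as bars and an open triangle for Eln in activated TA, which had 0 UMIs and is drawn at the level of 3 counts. Bottom, percent of cells with at least 1 UMI after each cell was thinned to 2000 UMIs, with exact 95% binomial intervals; Mgp in activated EOM reached 279 CPM and 25.8% of cells.

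The fibrillins came first in role. Fbn1 (ENSMUSG00000027204), on the minus strand at chr2:125300594-125507993 of GRCm38, encodes the main fibrillin of adult microfibrils and had 72.4, 58.7, 41.4 and 18.2 CPM. After each cell was thinned to 2000 UMIs, 11.2%, 10.8%, 7.38% and 3.66% of cells held a UMI, and 26.6%, 24.2%, 47.3% and 32.0% did so at full depth. Fbn1 was thus found in a sizeable share of cells in all 4 libraries. Fbn2 (ENSMUSG00000024598), the fibrillin best known from developing tissue, had 8, 1, 557 and 105 UMIs, or 0.458, 0.0651, 4.54 and 1.03 CPM. Nearly all of its UMIs thus lay in activated cells, and more of them in EOM than in TA.

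The microfibril-associated genes were low in culture. Mfap2 (ENSMUSG00000060572, plus strand, chr4:141010418-141015984), whose product binds fibrillin, had 6.01, 5.08, 0.212 and 0.156 CPM, from 105, 78, 26 and 16 UMIs. Mfap5 (ENSMUSG00000030116, plus strand, chr6:122505845-122529290), its close relative, had 1.72, 0.521, 0.147 and 0.0978 CPM, and the 8 UMIs of quiescent TA lay in 3 cells. Mfap4 (ENSMUSG00000042436, plus strand, chr11:61485431-61488900), a fibrinogen-domain protein that binds fibrillin and elastin, had 55.7, 3.06, 3.47 and 0.469 CPM. At 2000 UMIs it was held by 8.71%, 0.596%, 0.741% and 0.0709% of cells, so quiescent EOM stood apart from the other libraries in cells as well as in UMIs.

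Each fibulin behaved in its own way. Fbln5 (ENSMUSG00000021186, minus strand, chr12:101746565-101819055), which brings elastin and its cross-linking enzymes together, had 83.0, 6.38, 5.23 and 2.62 CPM and was held by 13.5%, 1.26%, 1.08% and 0.472% of thinned cells. Fbln1 (ENSMUSG00000006369, plus strand, chr15:85205949-85286535), a fibulin of basement membranes and elastic fibres, had 6.70, 3.52, 18.4 and 15.9 CPM. Fbln2 (ENSMUSG00000064080, plus strand, chr6:91212455-91272540), also found at basement membranes, had 11.3, 3.91, 12.6 and 8.65 CPM. Fbln5 was thus highest in quiescent EOM, Fbln1 higher in the activated libraries under the 10% mitochondrial limit used here, and Fbln2 lowest in quiescent TA. Eln (ENSMUSG00000029675, minus strand, chr5:134702593-134747323), the elastin precursor, had 31, 15, 6 and 0 UMIs, and in activated TA 3 counts would have been 0.0293 CPM.

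Mgp (ENSMUSG00000030218, minus strand, chr6:136872435-136875823) had 7.10, 1.82, 279 and 13.8 CPM. It was held by 16, 9, 2974 and 344 cells at full depth, or 0.445%, 0.309%, 53.5% and 8.04% of cells. At 2000 UMIs the shares were 0.228% (0.0984% to 0.448%), 0.210% (0.0772% to 0.457%), 25.8% (24.6% to 26.9%) and 2.03% (1.63% to 2.50%). The quiescent values came from very few cells: the 5 cells with most Mgp held 111 of the 124 UMIs of quiescent EOM and 24 of the 28 of quiescent TA. In activated EOM the 5 top cells held 495 of 34293 UMIs, so there the level was spread over 2974 cells.

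The quiescent Mgp level moved with cells that resembled other types. In quiescent EOM, 2 cells had at least 3 rare markers of another type, 1 of fibroblasts and 1 of tenocytes, and together they held 101 of the 124 Mgp UMIs. Without them, and without 6 such cells of quiescent TA, Mgp stood at 1.32 CPM in quiescent EOM and 1.57 CPM in quiescent TA, from 23 and 24 UMIs. The order of the muscles was then the other way round, so no muscle difference of Mgp in quiescent cells is claimed. Fbln1, which also had UMIs in such cells, kept its order at 6.08 and 3.00 CPM.

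Free RNA in the droplets could place UMIs of these genes in cells that do not make them. The 14 endothelial-like cells left out of quiescent TA, with a median of 6754.5 UMIs, held no UMI of Fbn1, Fbln5 or Mfap4. At 2000 UMIs 11 of them remained, and a count of 0 there is compatible with up to 28.5% by the exact interval, so this reference was too small to bound the shares of muscle cells. Those cells held 32 UMIs of Fbln2 in 10 cells and 19 of Mgp in 1 cell, and endothelium is known to make Fbln2, so they were no reference for that gene. In the activated libraries no cluster was named for a non-muscle type, though a cluster of activated TA described below had some mural markers up.

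In the comparison of quiescent EOM with quiescent TA, which asks how the stem cells of both muscles differ in place, Mfap4 and Fbln5 stood out. Mfap4 was 18.2-fold higher in EOM (13.6 to 24.9) and Fbln5 13.0-fold (10.6 to 16.1). Of the 3 listed genes that reached 20 CPM in either library, these 2 were at least 2-fold higher in EOM, where 2.94% of all genes at that level were. At least 2-fold lower were 0 of 3, against 2.6% of all genes. Mfap4 and Fbln5 reached 20 CPM in EOM only, so they could not have counted as lower. The list was chosen with earlier results of these data known. The remaining gene of the 3, Fbn1, was 1.23-fold higher (1.13 to 1.35). Over the 7 listed genes with at least 5 CPM the median log2 ratio (with 1 CPM added) was 1.32, beside 0.10 over all genes at that level.

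The low genes of quiescent cells had wider intervals. Fbln2 was 2.89-fold higher in EOM (2.15 to 3.92), Mfap5 3.30-fold (1.48 to 8.33) and Fbln1 1.91-fold (1.37 to 2.68). For Mfap2, at 1.18-fold (0.875 to 1.61), Eln, at 1.82-fold (0.952 to 3.62), and Fbn2, at 7.03-fold (0.943 to 312), the interval included 1, so no difference was detectable at this depth. With at most 5% mitochondrial UMIs in place of 10%, which leaves 263 cells of quiescent EOM and 47 of quiescent TA, Fbln2 (log2 ratio -1.68), Fbln1 (-1.29), Mfap5 (-2.65) and Eln (-2.09) were lower in EOM, so their order rests on the cells kept, while Mfap4 (2.30 in place of 3.80) and Fbln5 (2.92 in place of 3.51) stayed higher. Mgp was 3.89-fold higher (2.57 to 6.10) with the 2 cells described above and lower in EOM without the cells with rare markers. Fewer cells that use a gene and less RNA in each cell cannot be told apart in summed UMIs. At 2000 UMIs all 10 genes were held by a larger share of cells in quiescent EOM, but the intervals of the muscles were apart only for Mfap4, Fbln5 and Fbln2. For Mgp the shares were 0.228% and 0.210%. How many of all genes had a larger share in EOM was not counted.

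Mfap4 and Fbln5, both highest in quiescent EOM, were not held together more often there. Of 306 quiescent EOM cells with an Mfap4 UMI among 2000, 12.4% (8.94% to 16.6%) also held Fbln5, against 13.6% of the Mfap4-free cells. Fbn1 was held by 12.1% and 11.2% of these, and the fibroblast proteoglycan Dcn by 1.31% and 2.31%, while the fibroblast receptor Pdgfra was held by 0 of 306. Among the 473 cells with Fbln5, Dcn was held by 4.65% (2.94% to 6.96%), against 1.84% (1.39% to 2.39%) of the others. Cells with Fbln5 thus held Dcn more often, beyond counting error, and cells with Mfap4 did not.

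In activated cells, where the question is whether the muscles still differ after culture, Mgp showed the widest gap. Its 279 CPM in EOM were 20.2-fold the 13.8 CPM of TA (19.2 to 21.4). Fbn1 was 2.28-fold higher in EOM (2.16 to 2.41). These were the only listed genes with at least 20 CPM in either activated library. Of them 2 of 2 were at least 2-fold higher in EOM, against 2.06% of all genes. Both reached 20 CPM in EOM only, so neither could have counted as lower there (0 of 2, against 0.924%). The list was chosen with earlier results of these data known. Below 20 CPM, Mfap4 was 7.4-fold higher (5.48 to 10.2), Fbn2 4.42-fold (3.58 to 5.50), and Fbln5 2.00-fold (1.73 to 2.31). No activated EOM cell and 1 activated TA cell held at least 3 rare markers of another type. Only markers held by at most 10% of the cells of a library counted as rare, which left 5 of the 8 mural markers in activated EOM. A type that is common in a library could thus be missed, so these counts do not show that such cells are absent. The part of the Pdgfrb difference given above in these folds was not tested.

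The remaining genes differed little between the activated libraries. Fbln2 was 1.46-fold (1.34 to 1.59) and Fbln1 1.16-fold higher in EOM (1.09 to 1.24). For Mfap5, at 1.5-fold (0.657 to 3.64), and Mfap2, at 1.35-fold (0.70 to 2.70), the interval included 1, and Eln, with 6 UMIs in EOM and 0 in TA, did not differ beyond counting error either: set at 3 counts in TA the ratio would be 1.67, with a lower limit of 0.981. The median log2 ratio of the 5 genes with at least 5 CPM was 0.78, beside -0.01 over all genes. At 2000 UMIs, 8 of the 10 genes were held by a larger share of EOM cells, but for Fbln1 and Eln among these the intervals of the muscles overlapped. Mfap5, at 0 of 5532 cells (3 counts would be 0.0542%), and Mfap2 had no larger share in EOM. How many of all genes had a larger share was not counted.

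**Figure D2:**
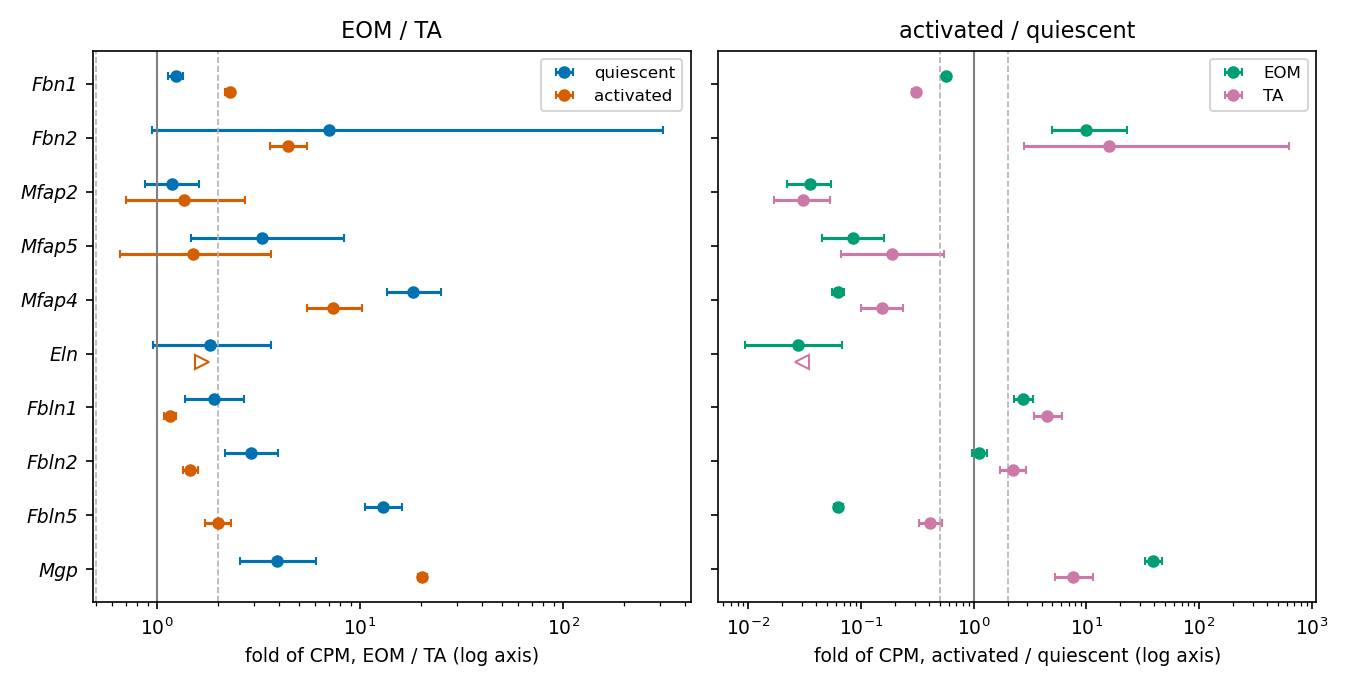
Fold of CPM (log axis) for each gene, EOM over TA in quiescent and activated cells on one side and activated over quiescent cells in EOM and TA on the other, with 95% intervals for counting error, dashed lines at 2-fold, and open triangles for bounds from 3 counts. Mfap4 and Fbln5 lie at 18.2 and 13.0 in quiescent cells, Mgp at 20.2 in activated cells; the quiescent Mgp point rests on 2 cells.

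Activation was read as the cultured library against the quiescent one of the same muscle. In EOM, Mgp was 39.3-fold higher in activated cells (33.0 to 47.3) and Fbln5 and Mfap4 were 15.9-fold (14.5 to 17.5) and 16.0-fold lower (14.3 to 18). Without the 2 quiescent EOM cells described above the log2 ratio of Mgp was 6.92 in place of 5.11, and at most 5% mitochondrial UMIs in place of 10% made it 2.27. Of the 4 listed genes with at least 20 CPM in either EOM library, 1 was at least 2-fold higher and 2 were at least 2-fold lower, where 27.5% and 24.4% of all genes were, so sizes of this kind were common on activation. Fbn1 was at 0.572 of its quiescent level (0.538 to 0.609). In TA, 0 of 1 gene at that level was 2-fold higher, against 30.5% of all genes, and 1 of 1 lower, against 24.6%: Fbn1, 3.23-fold lower (2.98 to 3.50). As Mgp, Fbln5 and Mfap4 did in EOM, Fbn1 in TA reached 20 CPM in 1 library only, so that limit fixed the direction in which it could count. Each activation comparison shares its libraries with the comparisons of muscles, so their values are set side by side only.

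The low genes changed on activation in both muscles in ways their counts could show. Fbln1 was 2.74-fold higher in activated EOM (2.28 to 3.33) and 4.51-fold higher in activated TA (3.44 to 6.03). Fbln5 was 2.44-fold lower in activated TA (1.91 to 3.08), and Mfap4 6.52-fold lower (4.27 to 9.96), both smaller steps than in EOM and both starting from a lower quiescent level. Fbln2 was 1.12-fold the quiescent level in EOM (0.965 to 1.31), where the interval included 1, and 2.21-fold in TA (1.70 to 2.93). Mgp was 7.57-fold higher in activated TA (5.22 to 11.4). At the 5% mitochondrial limit these turned: Fbln1 was then at a log2 ratio of -0.12 in EOM and -1.49 in TA, and Mgp at -0.87 in TA, with 47 quiescent TA cells left.

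Mfap2, Mfap5 and Eln went the other way from Fbln1, and Fbn2 the same way. Mfap2 was 28.4-fold lower in activated EOM (18.3 to 45.5) and 32.5-fold lower in activated TA (18.8 to 59.6), and Mfap5 was 11.7-fold (6.32 to 22.3) and 5.33-fold lower (1.83 to 15). Mfap5 in EOM also turned at the 5% mitochondrial limit, to a log2 ratio of 0.19. Eln was 36.3-fold lower in EOM (14.9 to 107) and, from 15 UMIs to 0, at least 33.3-fold lower in TA when 0 is set at 3 counts, or at least 23.9-fold by the lower limit that the 15 UMIs allow. Fbn2, from 8 and 1 quiescent UMIs, was 9.91-fold (4.99 to 23.1) and 15.8-fold higher (2.77 to 628) in activated cells. Median log2 ratios over the genes with at least 5 CPM were -0.79 in EOM (7 genes) and -0.03 in TA (6 genes), beside 0.06 and 0.14 over all genes. Fibroblast markers, summed, were lower in both activated libraries as given above, and whether that has a part in these folds was not tested.

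Other genes of elastic fibre assembly, a list of 30 that holds linkers, latent TGF-beta binding proteins, lysyl oxidases and receptors, were mostly lower after activation. In EOM 13 had at least 20 CPM in either library, of which 1 was at least 2-fold higher and 7 lower, beside 27.5% and 24.4% of all genes. Fibronectin, Fn1, on which microfibrils assemble, had 65.0 CPM in activated and 16.9 CPM in quiescent EOM, 3.85-fold higher. The largest steps down were Ltbp4, which tethers Fbln5 to microfibrils, from 406 to 1.33 CPM (306-fold), Loxl2, a cross-linking oxidase, from 59.8 to 1.17 CPM (51.0-fold), and Ltbp3, from 65.5 to 13.4 CPM (4.88-fold). The median log2 ratio of the list was -1.40 there, beside 0.06 over all genes. The genes named here reached 20 CPM only in the library where they were higher, so that limit fixed the direction in which each could count.

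In TA 12 genes of that list had at least 20 CPM, with 2 higher and 8 lower, beside 30.5% and 24.6% of all genes, and a median log2 ratio of -1.72, beside 0.14. Fn1, at 35.2 and 7.62 CPM, was 4.62-fold higher in activated cells, and the proteoglycan Vcan, at 33.0 and 8.14 CPM, 4.06-fold. Thsd4, which promotes fibrillin assembly, went from 34.5 to 0.362 CPM (95.4-fold lower), Ltbp4 from 231 to 2.80 CPM (82.6-fold) and Loxl2 from 39.0 to 1.42 CPM (27.5-fold). Fn1 was thus higher and Ltbp4 and Loxl2 were lower in activated cells of both muscles. In TA too the named genes reached 20 CPM only in the library where they were higher, so none could have counted the other way.

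Between muscles the assembly list differed in few genes. Of 14 genes in quiescent cells, 2 were higher and 2 lower in EOM by that size, beside 2.94% and 2.6% of all genes. Higher were Vcan, at 56.8 and 8.14 CPM (6.97-fold, 5.78 to 8.47), and the microfibril glycoprotein Emilin1, at 36.0 and 16.4 CPM (2.19-fold). Lower were Thsd4, at 10.4 and 34.5 CPM (3.31-fold), and the lysyl oxidase Lox, at 14.6 and 41.0 CPM (2.81-fold). Vcan, Emilin1, Thsd4 and Lox each reached 20 CPM only in the library where they were higher, so none could have counted the other way. In activated cells 1 of 8 was higher, Loxl1, an oxidase that works with Fbln5 on elastin, at 48.9 CPM in EOM and 21.0 CPM in TA (2.33-fold), and 0 of 8 were lower, beside 2.06% and 0.924% of all genes. The medians of the list were 0.48 and 0.41 on the log2 scale, beside 0.10 and -0.01 over all genes.

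Genes of vitamin K carboxylation and of the morphogen pathway that Mgp binds, a list of 14, were also counted. Between muscles 0 of 10 (quiescent) and 0 of 6 (activated) were 2-fold apart, with median log2 ratios of 0.33 and 0.03. With 2.94% and 2.06% of all genes higher in EOM, and 2.6% and 0.924% lower, a count of 0 is near the background. On activation 0 of 10 were higher and 7 lower in EOM, beside 27.5% and 24.4% of all genes. In TA 0 of 9 were higher and 5 lower, beside 30.5% and 24.6% of all genes. The median log2 ratios were -1.40 and -1.17, beside 0.06 and 0.14 over all genes. Pros1, protein S and itself a Gla protein, went from 131 to 2.88 CPM in EOM (45.7-fold lower) and from 72 to 2.30 CPM in TA (31.3-fold). Bmp4, a morphogen that Mgp binds, went from 82.3 to 6.18 CPM (13.3-fold) and from 104 to 1.35 CPM (77.0-fold). Bmp2 in EOM went from 20.1 to 0.880 CPM (22.8-fold), and Vkorc1, the reductase that recycles vitamin K, in TA from 42.2 to 9.50 CPM (4.44-fold). These named genes reached 20 CPM in the quiescent library only, so they could not have counted as higher on activation.

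Activated cultures mix proliferating and differentiating cells, and these were separated by Myog, the transcription factor of commitment, and by Mki67 or Top2a, genes of cycling cells. Each cell with at least 5000 UMIs was thinned to 5000 UMIs, and a cell with at least 1 Myog UMI was called Myog-holding. That gave 3219 of 5411 cells in activated EOM (59.5%) and 2980 of 4152 in activated TA (71.8%). Values of these classes were then taken from all UMIs of the cells. Median UMIs per cell were 20964 in Myog-holding and 22427.5 in Myog-free EOM cells, and 23236 and 24785 in TA, while Pax7 stood at 42.2 and 121 CPM in EOM and 37.1 and 97.6 CPM in TA.

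In both muscles Mgp and Fbn1 were higher in Myog-free cells, and Mfap4 and Fbln5 in Myog-holding ones. In EOM Mgp had 477 CPM in Myog-free and 138 CPM in Myog-holding cells, 3.46-fold lower, and Fbn1 62.3 and 26.4 CPM, 2.36-fold lower (2.23 to 2.50). These sizes depend on where the line is drawn: with at least 3 Myog UMIs required the log2 ratios were -4.23 and -2.07 in place of -1.78 and -1.21, and at the 5% mitochondrial limit -0.95 and -0.64, where neither gene was 2-fold lower. At the settings used here they were 2 of 3 listed genes with at least 20 CPM that were at least 2-fold lower, where 3.11% of all genes were, and 0 of 3 were higher, where 5.68% were. In TA Mgp had 33.2 and 5.64 CPM, 5.89-fold lower (5.25 to 6.63), which made it 1 of 2 against 0.934% of all genes, with 0 of 2 higher against 3.55%. Both genes counted there, Mgp and Fbn1, reached 20 CPM in Myog-free cells only, so neither could have counted as higher. Fbn1 in TA, at 23.8 and 15.8 CPM, was at 0.663 of its Myog-free level.

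The other genes differed from each other. Fbln2 was 2.30-fold lower in Myog-holding cells of EOM and 3.01-fold lower in those of TA, and Fbn2 was 2.15-fold lower in EOM and at 0.681 (0.452 to 1.04) in TA. Fbln1 was at 0.762 in EOM, where it was the third gene at 20 CPM, and at 0.967 (0.869 to 1.08) in TA. For Fbn2 and Fbln1 no difference was detectable in TA. Mfap4 had 5.65 CPM in Myog-holding and 0.469 CPM in Myog-free EOM cells, 12.0-fold higher (7.98 to 19), and 0.598 and 0.166 CPM in TA, 3.60-fold (1.43 to 11.7). Fbln5 was 1.92-fold higher in Myog-holding EOM cells (1.61 to 2.30) and 1.74-fold in TA (1.28 to 2.40). All 6 Eln UMIs in these EOM cells lay in Myog-free ones, and Mfap2 was at 0.171 (0.0505 to 0.467). Medians over genes with at least 5 CPM were -0.90 (7 genes) and -1.0 (4 genes) on the log2 scale, beside -0.10 and -0.07 over all genes. Summed fibroblast markers stood at 56 CPM in Myog-holding and 111 CPM in Myog-free EOM cells. Mural markers summed to 2638 and 1346 CPM, mostly Acta2, but of the 3 with at least 5 CPM 1 was higher and 2 were lower in Myog-holding cells, with a median log2 ratio of -1.41, the direction of Mgp and Fbn1. Tenocyte markers summed to 141 and 29.2 CPM, and the part of any of these markers was not tested.

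Graded by Myog, the genes changed step by step. In EOM cells with 0, 1 to 4, 5 to 19 and 20 or more Myog UMIs among 5000 (2192, 1028, 1170 and 1021 cells), Mgp had 477, 363, 23.5 and 8.62 CPM and Fbn1 62.3, 52.3, 16.6 and 7.35 CPM. Mfap4 ran the other way, at 0.469, 0.926, 4.82 and 12.4 CPM, as did Fbln5, at 3.40, 3.98, 6.61 and 9.50 CPM. The main step of Mgp and Fbn1 thus fell between 1 to 4 and 5 to 19 Myog UMIs. Fbln2 had 18.8, 15.1, 5.52 and 3.21 CPM, Fbn2 6.57, 5.39, 2.37 and 1.07 CPM, while Fbln1 fell off less, from 21.4 CPM with no Myog UMI to 15.7 and 12.6 CPM in the upper groups. Mfap2 had 21, 5, 0 and 0 UMIs.

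In TA the order was the same for most genes. Over 1172, 1047, 1264 and 669 cells, Mgp had 33.2, 11.9, 2.57 and 0.739 CPM and Fbn1 23.8, 20.7, 15.7 and 7.19 CPM. Mgp in TA was already lower with 1 to 4 Myog UMIs, whereas in EOM it was still at 363 CPM there. Fbln5 had 1.73, 1.88, 3.06 and 4.91 CPM and Mfap4 0.166, 0.113, 0.625 and 1.41 CPM. Fbln1 was level at 16.3, 16.6 and 16.6 CPM and lower, at 12.3 CPM, only with 20 or more.

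**Figure D3:**
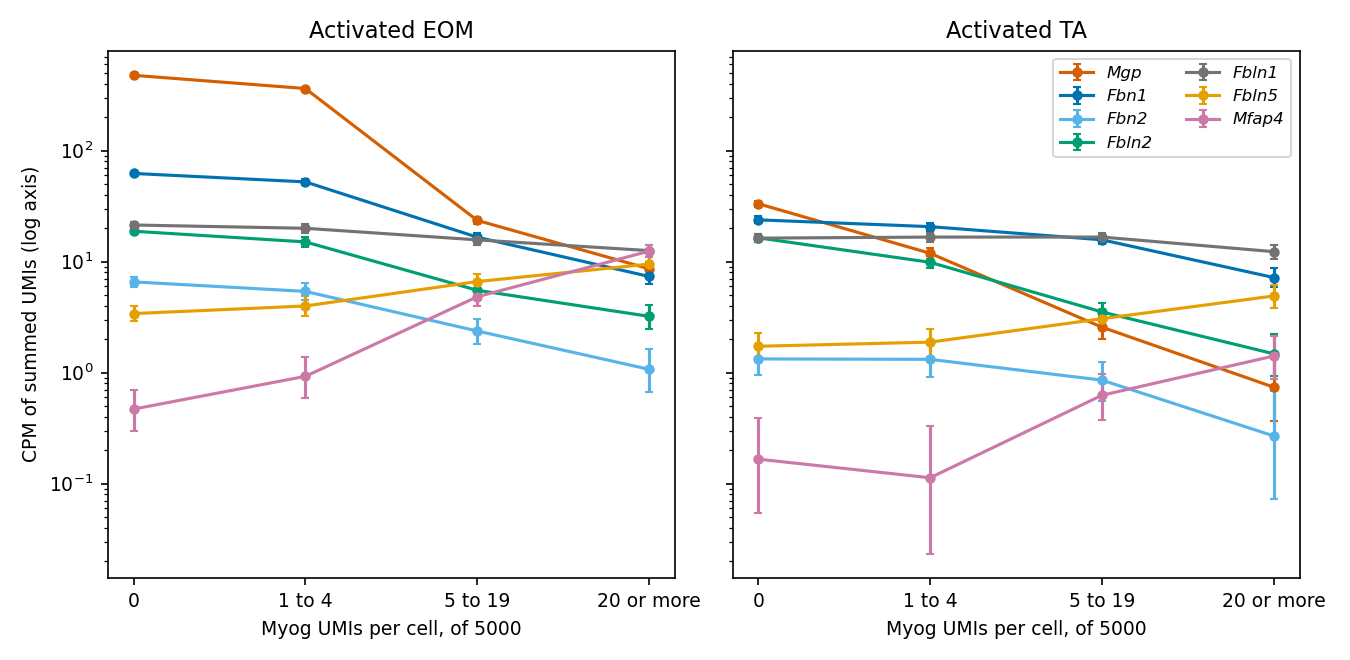
CPM (log axis) of 7 genes in activated EOM and activated TA cells grouped by Myog UMIs among 5000 (0, 1 to 4, 5 to 19, 20 or more), with 95% Poisson intervals. Mgp in EOM goes from 477 to 8.62 CPM and Mfap4 from 0.469 to 12.4 CPM.

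Myog-free cells were also split by cycling state, a split that leaves cycling cells on both sides: cells with neither gene among 5000 UMIs still had 89.4 CPM of Mki67 in EOM and 76.7 CPM in TA, against 239 and 201 CPM in cells called cycling. In EOM, 1825 Myog-free cells held Mki67 or Top2a and 367 did not, and Mgp had 477 and 478 CPM in them, a ratio of 0.997 (0.961 to 1.03). Fbn1 was 1.16-fold higher in cycling cells (1.04 to 1.29), Fbln1 was at 0.982 (0.829 to 1.17) and Fbln2 at 0.898 (0.753 to 1.08). At 20 CPM, 0 of 4 listed genes were 2-fold higher and 0 of 4 lower, where 0.493% and 0.019% of all genes were. In TA (983 and 189 cells) Mgp had 32.7 and 36.7 CPM, at 0.889 (0.747 to 1.06), and Fbn1 was at 1.11 (0.884 to 1.40), with 0 of 2 genes apart either way against 0.631% and 0.0191%. With 10 cycling genes only 10 EOM and 2 TA cells were left as non-cycling, so whether these genes differ between Myog-free cells in and out of cycle could not be read from these classes.

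Among Myog-holding cells the cycling ones had more of the genes of Myog-free cells. In EOM (1920 cycling and 1299 non-cycling cells) Mgp had 189 and 48.3 CPM, 3.9-fold higher in cycling cells (3.68 to 4.15), and Fbn1 34.3 and 12.4 CPM, 2.76-fold (2.45 to 3.12). These were 2 of 2 genes at 20 CPM, where 6.27% of all genes were 2-fold higher, and 0 of 2 were lower, against 3.63%. Fbn1 reached 20 CPM in cycling cells only, so it could not have counted as lower. In TA (1814 and 1166 cells), where 0 listed genes reached 20 CPM and 3.66% and 2.47% of all genes were 2-fold higher or lower, Mgp had 7.72 and 1.84 CPM (4.19-fold, 3.08 to 5.80) and Fbn1 was 1.73-fold higher. Mfap4 was the opposite, at 2.03 CPM in cycling and 12.0 CPM in non-cycling Myog-holding cells of EOM, 5.92-fold lower, and at 0.194 and 1.33 CPM in TA, 6.87-fold lower. Fbln5 was at 0.579 and 0.650 of its non-cycling level in EOM and TA. Within Myog-holding cells the cycling ones also had less Myog, at 1718 against 3935 CPM in EOM and 1526 against 3354 CPM in TA. The shares of cycling state and of Myog level in these folds thus cannot be told apart here.

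The gap between muscles was looked at inside each class, since the libraries differ in their share of Myog-holding cells. Mgp was higher in EOM in all 4 classes: 14.6-fold in Myog-free cycling cells (13.6 to 15.6), 13.0-fold in Myog-free non-cycling cells (11.1 to 15.4), 24.4-fold in Myog-holding cycling cells (22.0 to 27.2) and 26.2-fold in Myog-holding non-cycling cells (19.6 to 35.8). The gap was thus present in every class, beside 20.2-fold over all cells. Fbn1 was 2.63-fold (2.41 to 2.88), 2.52-fold (2.00 to 3.21), 1.85-fold (1.70 to 2.01) and 1.16-fold (0.982 to 1.37) in the same order, so its gap was detectable in 3 of the 4 classes.

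Among the low genes, Fbn2 was 5.05-, 4.29-, 3.75- and 2.24-fold higher in EOM in the same order, each with an interval above 1. Fbln5 was 1.95-, 2.05-, 2.05- and 2.30-fold higher, and in Myog-free non-cycling cells its interval included 1 (0.912 to 5.18). Mfap4 was 10.5-fold (5.28 to 23.6) and 9.01-fold (6.31 to 13.2) higher in the Myog-holding classes, whereas in Myog-free cycling cells it was 2.13-fold with an interval that included 1 (0.763 to 7.35). Fbln1 ran from 0.971 to 1.70 and Fbln2 from 1.11 to 1.58, and each had an interval that included 1 in 2 of the 4 classes. Mfap2, Mfap5 and Eln, with at most 19 UMIs in a class, had no detectable gap in any class. Counting genes with at least 20 CPM over the 4 classes, 6 of 10 values were at least 2-fold higher and 0 of 10 lower. Of all genes 2.63%, 2.82%, 1.8% and 1.7% were higher and 1.41%, 1.55%, 0.948% and 0.901% lower. The 6 values are Mgp in every class and Fbn1 in the Myog-free classes, counted repeatedly from the same libraries. In the Myog-holding classes Mgp and Fbn1 reached 20 CPM in EOM at most, so they could not have counted as lower.

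**Figure D4:**
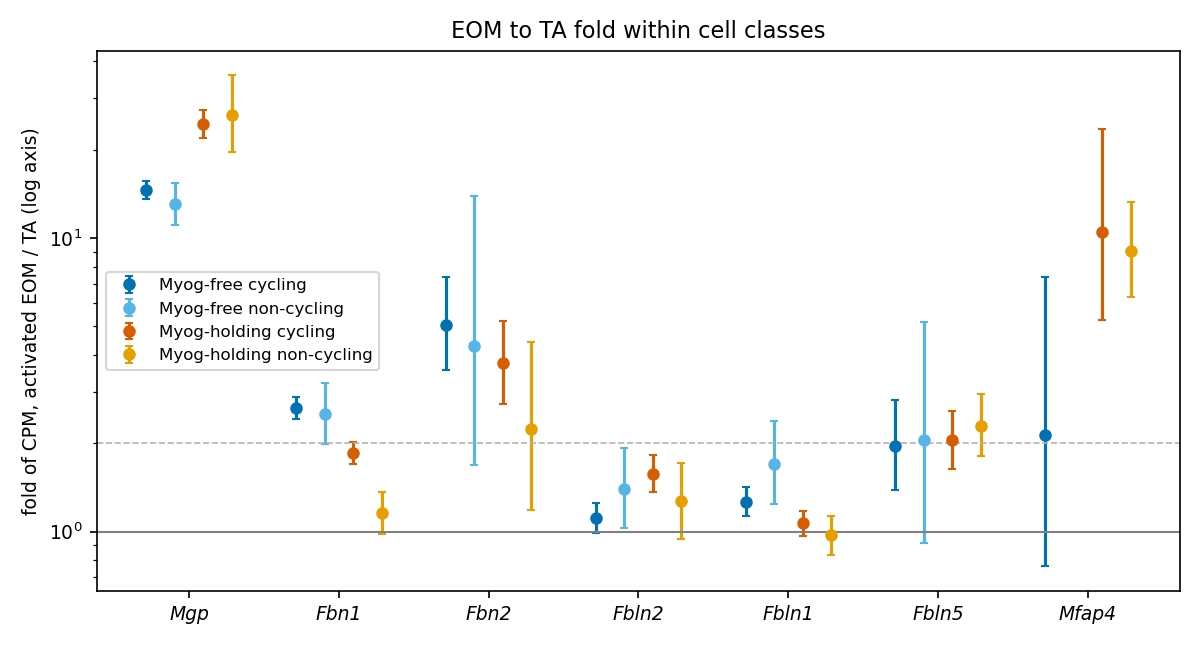
Fold of CPM, activated EOM over activated TA (log axis), for 7 genes within the 4 classes made from Myog and from Mki67 or Top2a, with 95% intervals for counting error and dashed lines at 2-fold. Mgp lies between 13.0 and 26.2 in every class; Mfap4 in Myog-free non-cycling cells is not drawn because TA had 0 UMIs.

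Cell by cell, Mgp and Fbn1 were held together in activated EOM. Of the 1979 EOM cells with an Mgp UMI among 5000, 28.7% held Fbn1 (26.7% to 30.7%), against 9.91% of the Mgp-free cells (8.93% to 11.0%). Mgp-holding cells also held Pax7 more often (42.6% against 17.6%) and Myog less often (30.6% against 76.1%). In TA, with 130 Mgp-holding cells, Fbn1 was held by 10.0% (5.43% to 16.5%) and by 8.43% of the Mgp-free cells, which did not differ beyond counting error, while Pax7 (44.6% against 19.4%) and Myog (27.7% against 73.2%) followed the pattern of EOM. Of 86 Mfap4-holding cells of activated EOM, 95.3% held Myog (88.5% to 98.7%), 12.8% Mgp and 4.65% Fbn1, against 58.9%, 37.0% and 17.0% of the Mfap4-free cells. Mfap4 and Mgp thus lay mostly in different cells of that culture.

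Clusters of each activated library, made on all variable genes and so not independent of these values, show the same layout. In activated EOM Mgp was highest in a cluster of 745 cells (773 CPM, 94.8% of cells with a UMI at full depth) and one of 775 cells (748 CPM, 96.3%), and lowest, at 7.21 CPM, in a cluster of 683 cells with 4935 CPM of Myog. That last cluster had the highest Mfap4, 17.8 CPM in 26.2% of its cells. In activated TA the highest Mgp levels were 80.7 CPM (214 cells, 42.1% holding) and 51.3 CPM (445 cells, 20.4%), so the top TA clusters lay above the lowest EOM clusters and far below the top ones. The TA cluster of 214 cells had the mural markers Pdgfrb and Notch3 at least 4-fold up, where a name needed at least 3 markers. In the other clusters given here no marker of another type was 4-fold up. Pdgfrb and Col1a1 were among the 10 top genes by fold of the EOM cluster of 775 cells. The part of mural cells in these levels was not tested.

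**Figure D5:**
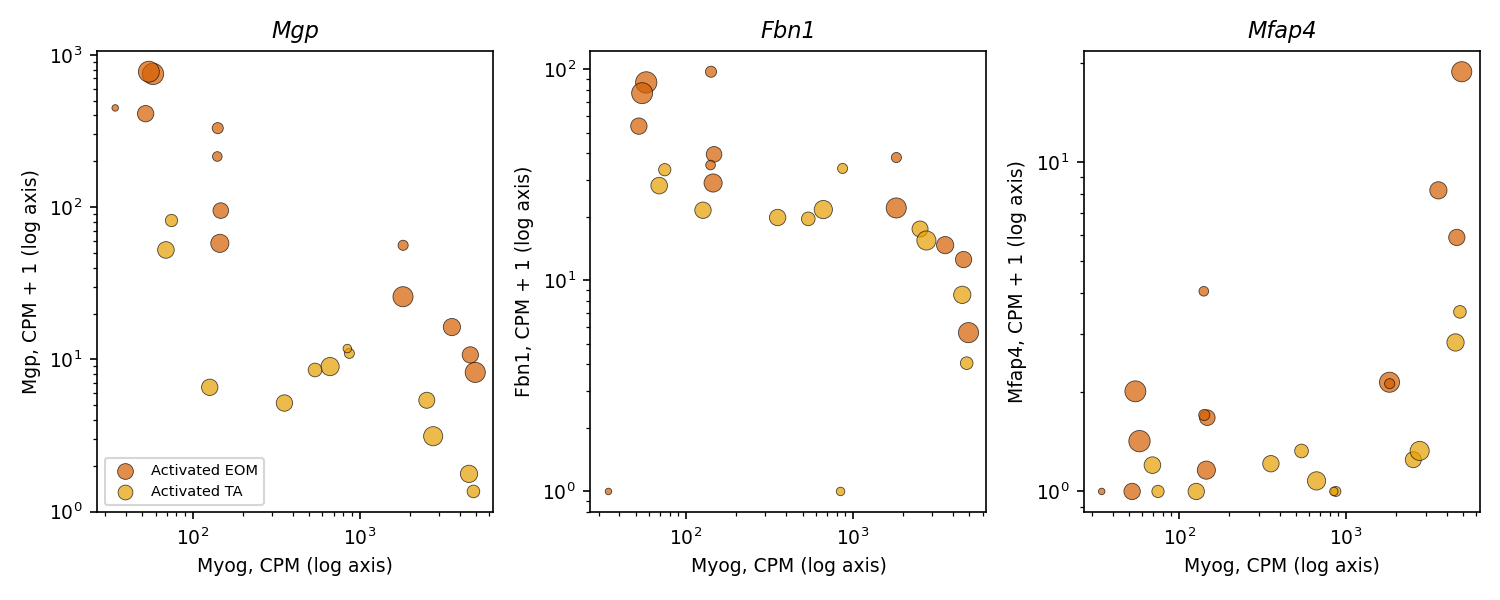
CPM plus 1 of Mgp, Fbn1 and Mfap4 (log axes) against CPM of Myog in 13 clusters of activated EOM and 12 of activated TA; a dot is a cluster and its area grows with its number of cells. Mgp and Fbn1 are highest in clusters with little Myog, apart from small clusters with no Fbn1 UMI, and Mfap4 is highest, at 17.8 CPM, in the EOM cluster with 4935 CPM of Myog.

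Genes whose cluster levels most resembled those of Mgp and Fbn1 were sought among 5086 genes with at least 20 CPM, over the 13 clusters of activated EOM. By Pearson r of log2 values Mgp was closest to Cald1 (0.990), Wisp2 (0.981), Ppp1ca (0.980), Eva1b (0.977) and Metap2 (0.971). Fbn1 was closest to Col1a2 (0.985), Ckap4 (0.985), Jcad (0.984), Lrrk1 (0.984) and Iqgap1 (0.983). All clusters come from 1 library, so these are descriptions. Mgp and Fbn1 had an r of 0.37 over the 13 clusters and of 0.93 over 12, without a cluster of 15 cells that had 0 UMIs of Fbn1 and 447 CPM of Mgp, so that this likeness rests on whether those cells are counted.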

How the data were processed

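The authors deposited raw UMI counts per gene and barcode for 4 libraries. The submitters' processing notes name Cell Ranger 3.0.2 and mm10, and which annotation was used is not given in the sources used here. The 10 genes and all lists were chosen with earlier results of these data known, and every listed gene was reported in every library; of the pathway lists up to 3 genes per direction with the largest fold were named. Barcodes with at least 500 genes and at most 10% mitochondrial UMIs were kept, and the highest Scrublet scores were removed by rank (0.8% per 1000 barcodes). Leiden clusters (scanpy 1.11.5, igraph 0.11.9) named for another type by at least 3 markers were left out, which took 14 cells of quiescent TA; only markers in at least 20% of a cluster's cells counted, a limit set after seeing the data. Summed UMIs were scaled to CPM, and folds carry exact Poisson-ratio intervals (scipy 1.17.1). Genes were called by size, 2-fold with 20 CPM in either library, since 1 library per group allows no test. Shares used cells thinned to 2000 UMIs with Clopper-Pearson intervals. Classes used cells thinned to 5000 UMIs, and left out shallower cells. Gene positions are from GENCODE vM21. The scripts were checked on simulated counts with known folds. Alternatives were edgeR 4.0.16 TMM and DESeq2 1.42.0 size factors, other cell and level limits, and other class rules.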

Additional observations from a re-analysis of the deposited data

How the results depend on the processing

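No paired analysis was possible because each group is 1 library, and no replicate could be left out for the same reason. TMM factors shift the log2 of CPM, before 1 CPM is added, by 0.40 for activated against quiescent EOM, 0.28 for TA and -0.13 for quiescent EOM against TA, and ratios of low genes moved by less; Fbn1 in activated against quiescent EOM was then -0.40 in place of -0.79. No direction of a listed gene turned under either scaling. Over all members and comparisons, 30 of 80 log2 ratios took the other sign in at least 1 alternative, in 42 of 760 values, 18 of them at the 5% mitochondrial limit. These ratios have 1 CPM added, so large folds of low genes can fall under 1 in size, as that of Fbn2 in activated against quiescent TA did (0.93). Of the 28 log2 ratios of at least 1 in size, 6 took the other sign in at least 1 alternative. Of these, 5 did so with at most 5% mitochondrial UMIs, which leaves 263, 47, 612 and 489 cells: Fbln2 in quiescent EOM against TA (-1.68), Mfap5 (0.19) and Fbln1 (-0.12) in activated against quiescent EOM, and Fbln1 (-1.49) and Mgp (-0.87) in TA. The sixth is Mgp in quiescent EOM against TA, at 1.52 with and -0.15 without cells holding rare markers of other types, an alternative chosen after seeing the data. The number of listed genes at least 2-fold apart moved with the level required. Quiescent EOM had 2 higher at 20 CPM, 4 at 5 CPM and 6 with no minimum, and activated EOM against TA 2 and, with no minimum, 5. Activated against quiescent EOM had 1 higher at 20 CPM, 2 at 5 CPM and 3 with no minimum. Lower there were 2 at 20 CPM, joined at 5 CPM by Mfap2 (6.01 CPM in quiescent and 0.212 CPM in activated EOM), and 5 with no minimum. Activated against quiescent TA had 0, 3 and 4 higher and 1, 3 and 6 lower. At 5 CPM, Myog-holding EOM cells had 1 gene higher and 4 lower, those of TA 2 lower, and the 4 classes 11 values higher in EOM. At 5% mitochondrial UMIs, 1 gene was lower in quiescent EOM than TA, 2 were higher in activated than quiescent EOM, 2 lower in activated than quiescent TA, 0 lower in Myog-holding EOM cells and 1 higher in cycling Myog-free TA cells. With TMM 2 genes were higher in activated EOM. With 10 cycling genes, which leave 10 and 2 Myog-free non-cycling cells in EOM and TA, cycling Myog-free cells had 1 gene lower in EOM and 2 higher in TA. The share of all genes past 2-fold is given for 20 CPM and the main settings only. The counts at other settings thus have no background beside them and say nothing of the listed genes as a set. The cause of these moves was not tested beyond the cells left. Genes under about 1 CPM rest on few UMIs, and differences between libraries have no replicate check.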
